A study of Homo sapiens with 6 samples.

Results

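The 10 genes described here, AGO1, AGO2, AGO3, AGO4, DICER1, DROSHA, DGCR8, XPO5, TARBP2 and TNRC6A, encode the core proteins of RNA interference, of 60483 genes in the count tables. They were chosen by name, as the Argonautes and the enzymes and partners that make and use microRNAs, and all 10 were found by Ensembl ID. RNA was sequenced from DLD-1 cells, an established human colorectal adenocarcinoma line, 3 libraries after transfection with AHR siRNA and 3 after control siRNA. AHR encodes the aryl hydrocarbon receptor, a transcription factor that ligands activate. Every library came from cells that had received an siRNA, so the comparison is between siRNAs and not between transfected and untransfected cells. The sources used here give neither the sequences of the siRNAs nor the time after transfection. The labels do not say whether replicates were separate cultures, so a p-value reflects the spread among the 6 libraries, which may be technical.

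In the nucleus, DROSHA and its RNA-binding partner DGCR8 form the Microprocessor, which cuts hairpins out of long primary transcripts, and XPO5 carries the hairpins to the cytoplasm. There DICER1 and its partner TARBP2 trim them to short duplexes, and an Argonaute takes up 1 strand as its guide. The Argonaute then binds messages that pair with the guide, and TNRC6A, a GW182 protein, links it to the enzymes that shorten poly(A) tails and remove caps. A transfected siRNA enters the pathway at the Argonaute, where it competes with the cell's own microRNAs. Frameshift mutations of TARBP2 and XPO5 are known in colorectal cancers with defective mismatch repair, a class to which DLD-1 belongs, and gene counts do not show such alleles.

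The libraries held 11567736 to 12937058 counts after AHR siRNA and 13585529 to 15037145 after control siRNA, and the 10 genes took 0.0821% to 0.102% of a library. AHR itself, the targeted gene, was at 95.8, 87.4 and 95.0 CPM (counts scaled to library size with TMM factors) in AHR siRNA libraries, against 117, 144 and 132 CPM in control siRNA libraries, or 70.9% of control. Among markers, epithelial genes such as EPCAM, KRT8 and CDH1 were abundant, with a summed level over 9 markers of 8031 to 8353 CPM in AHR siRNA libraries and 11630 to 13152 CPM in control siRNA libraries. Markers of fibroblasts (6 genes), leukocytes (5 genes) and endothelium (4 genes) summed to at most 3.31 CPM per list in AHR siRNA libraries and 3.93 CPM in control siRNA libraries, with DCN, LUM and KDR at 0 in all 6. The intestinal gene CDX1 had at most 10 counts in a library. Of the 8 epithelial markers tested, EPCAM, CDH1, KRT8, KRT18 and CDX2 were lower, KRT19 and KRT20 were not called, and VIL1 was higher, at 449% of control. The part of these differences in the results was not tested. Control siRNA replicate 1 stood apart from its group: it had the lowest value of the 3 control libraries for 9 of the 10 genes, with a median deviation of -0.14 from the group mean on the log2 scale. The median over all tested genes was 0.01, but the scaling keeps that median small in every library. This library also stood apart over the tested genes. The chi-square per degree of freedom between counts was 8.80 and 7.63 for its pairs with control siRNA replicates 2 and 3. It was 1.54 between those 2, and 3.34 to 5.52 between AHR siRNA libraries. AHR siRNA replicate 3 had the highest value of its group for 8 of the 10. Without control siRNA replicate 1, 7 of the 10 genes were lower and 2 higher, against 7 lower and 1 higher with all libraries. Of all genes tested without that library, 8993 of 15308 were called, 4470 higher and 4523 lower.

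Most of the 10 genes were lower in AHR siRNA cells. A gene was called changed at an edgeR adjusted p under 0.05, adjusted over all 14900 genes tested, and all 10 were tested. By that rule AGO1, AGO2, AGO3, DICER1, DGCR8, XPO5 and TNRC6A were lower, AGO4 was higher, and DROSHA and TARBP2 were not called. The 7 lower genes stand against a background in which 30.1% of all tested genes were called lower, and the 1 higher gene against 30.0% called higher. The 8 called of 10 stand against 60.1% called in either direction, so being called is common in this comparison. Their median log2 fold change was -0.29, against 0.01 over all tested genes. For 6 of the 10 the groups did not overlap, against 63.7% of all tested genes. In bulk RNA, fewer cells that express a gene and less RNA per cell cannot be told apart.

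**Figure D1:**
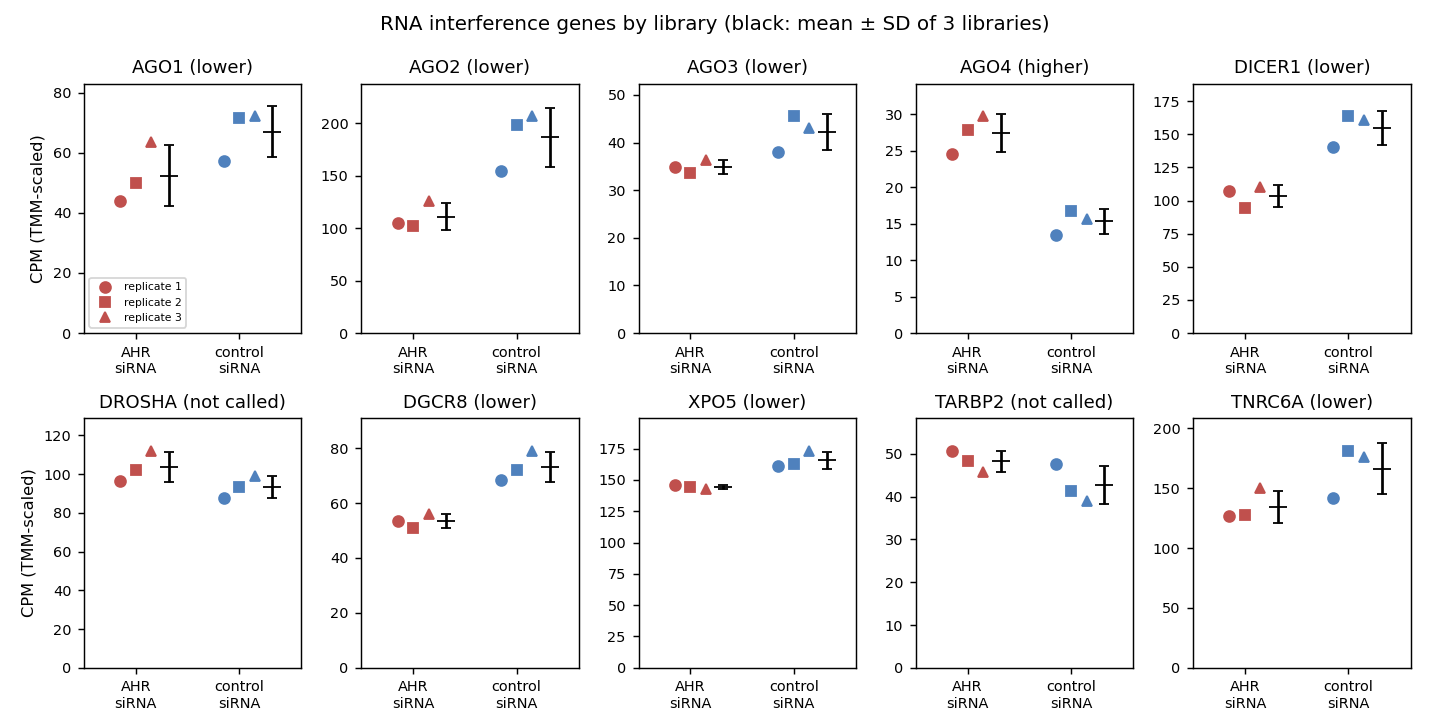
CPM (TMM-scaled, from 0) of each of the 10 genes in the 3 AHR siRNA libraries (red) and the 3 control siRNA libraries (blue), with symbols for replicates 1 to 3 and the mean ± SD in black. AGO2 sits at 102 to 126 CPM in AHR siRNA libraries, below all control siRNA libraries, and AGO4 at 24.6 to 29.7 CPM, above all of them.

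The scaling matters for the smaller of these differences. With library totals in place of TMM factors, the median gene moved by 0.15 on the log2 scale, and 64.7% of the genes called (5885 of 9090) lay on the higher side, whereas TMM put 4474 of 8953 there. On that scale 3 of the 10 genes were called lower and 3 higher. AGO2, DICER1 and DGCR8 remained lower and AGO4 higher there, DROSHA and TARBP2 were then called higher, and AGO1, AGO3, XPO5 and TNRC6A lost their calls. None of the 10 changed direction under any of the 15 alternatives computed.

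Among the Argonautes, AGO2 fell furthest. AGO2 encodes the Argonaute that cuts fully matched targets, which is how an siRNA removes its message. It stood at 105, 102 and 126 CPM in AHR siRNA replicates 1 to 3, against 155, 198.5 and 207 CPM in control siRNA replicates 1 to 3. Every AHR siRNA library was below every control siRNA library. The means were 111 ± 13 CPM in AHR siRNA cells and 187 ± 28 CPM in control siRNA cells (SD, n = 3 each), 59.5% of control, and the log2 fold change was -0.75 (edgeR adjusted p = 2.04e-06, SE 0.10). Of all tested genes, 23.1% changed by more than AGO2 in size, and 9.86% had a lower fold change.

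AGO4, the least abundant Argonaute by counts, was the member that rose. Its protein binds guides but lacks the cutting activity of AGO2. AGO4 was at 24.6, 27.8 and 29.7 CPM in AHR siRNA replicates 1 to 3, against 13.5, 16.8 and 15.6 CPM in control siRNA replicates 1 to 3. The groups were well apart, with 297 to 405 counts in AHR siRNA libraries and 180 to 243 in the larger control siRNA libraries. The means were 27.4 ± 2.6 CPM in AHR siRNA cells and 15.3 ± 1.7 CPM in control siRNA cells (SD, n = 3 each), 179% of control, and the log2 fold change was 0.84 (edgeR adjusted p = 1.32e-06, SE 0.11).

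AGO1 and AGO3 fell by less. AGO1, which like AGO4 acts mainly by recruiting the silencing enzymes, was at 43.9, 49.9 and 63.5 CPM in AHR siRNA libraries, against 57.3, 71.6 and 72.2 CPM in control siRNA libraries. AHR siRNA replicate 3 was above control siRNA replicate 1, so the groups overlapped. The log2 fold change of AGO1 was -0.35 (edgeR adjusted p = 0.0102, SE 0.11). It was -0.46 without control siRNA replicate 1, and AGO1 was no longer called without AHR siRNA replicate 1 (-0.24, edgeR adjusted p = 0.0821) or replicate 2 (-0.32, edgeR adjusted p = 0.0622). AGO3 was at 34.9, 33.5 and 36.4 CPM in AHR siRNA libraries, against 38.0, 45.6 and 43.2 CPM in control siRNA libraries. The AGO3 groups did not overlap, and its log2 fold change was -0.27 (edgeR adjusted p = 0.00900, SE 0.08). When control siRNA replicate 2 was left out, AGO3 was no longer called (-0.22, edgeR adjusted p = 0.0531).

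AGO4, AGO1 and AGO3 are neighbours on chromosome 1, in that order, with no other protein-coding gene starting between them in the RefSeq annotation, while AGO2 lies on chromosome 8. The ratio of counts between a pair of genes needs no library scaling. AGO4 over AGO1 was 0.529 ± 0.052 in AHR siRNA libraries and 0.229 ± 0.011 in control siRNA libraries (SD, n = 3 each). AGO4 over AGO3 was 0.784 ± 0.068 in AHR siRNA libraries and 0.362 ± 0.006 in control siRNA libraries (SD, n = 3 each). AGO4 over AGO2 was 0.247 ± 0.021 in AHR siRNA libraries and 0.0824 ± 0.0061 in control siRNA libraries (SD, n = 3 each). All 3 ratios were higher in every AHR siRNA library than in any control siRNA library, with an exact two-sided permutation p of 0.1 each, the smallest that 3 against 3 allows. Of 6 ratios computed between members, each gave the same p, also after Benjamini-Hochberg adjustment. Each of the 6 sets members with unlike fold changes against each other. The ratios therefore restate those fold changes free of library scaling and are no separate support for them.

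The make-up of the Argonaute pool is described next. Per kb of merged exon, AGO2 made up 43.3 ± 1.5% of the summed Argonaute level in AHR siRNA libraries and 56.8 ± 1.3% in control siRNA libraries (SD, n = 3 each). AGO4 made up 23.3 ± 1.3% in AHR siRNA libraries and 10.2 ± 0.5% in control siRNA libraries (SD, n = 3 each). The shares of AGO1 were 23.2 ± 1.8% in AHR siRNA libraries and 23.3 ± 0.2% in control siRNA libraries, and those of AGO3 were 10.3 ± 0.9% in AHR siRNA libraries and 9.67 ± 0.57% in control siRNA libraries (SD, n = 3 each). The level summed over the 4 genes was 208, 213 and 256 CPM in AHR siRNA libraries, against 264, 332 and 338 CPM in control siRNA libraries, 72.5% of control by the means. In CPM the groups did not overlap, while per kb they did, with AHR siRNA replicate 3 at 18.3 and control siRNA replicate 1 at 17.6, and the means gave 78.2% of control. The sizes of the shares depend on the gene length used. Their directions for AGO2 and AGO4 do not, because a length scales all libraries alike. AGO2 had the lowest and AGO4 the highest fold change of the 4, so the other lengths tried are no separate check of direction.

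**Figure D2:**
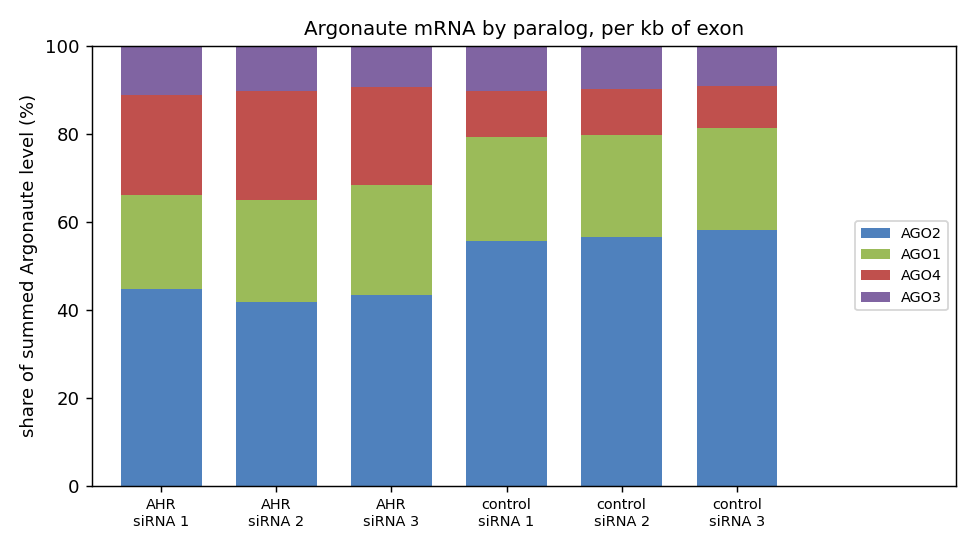
Share of AGO1, AGO2, AGO3 and AGO4 in their summed level per kb of merged exon, in percent, for each of the 3 AHR siRNA libraries (left) and the 3 control siRNA libraries (right). AGO2 (blue) holds 41.8% to 44.8% in AHR siRNA libraries and 55.7% to 58.2% in control siRNA libraries, and AGO4 (red) holds 22.3% to 24.7% in AHR siRNA libraries and 9.57% to 10.6% in control siRNA libraries.

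In the 250 bases before the RefSeq start site, the promoter of AGO4 holds 1 copy of GCGTG, the core of the element that the AHR dimer binds, and that of DGCR8 holds 2 copies of its complement CACGC. The pair is shown as a member that rose and a member that fell which both hold the core, with the core in capitals, 5′ to 3′ on the gene's strand (RefSeq, GRCh38.p14). AGO4 is shown at chr1:35807766-35808015, plus strand, and DGCR8 at chr22:20079991-20080240, plus strand.
AGO4: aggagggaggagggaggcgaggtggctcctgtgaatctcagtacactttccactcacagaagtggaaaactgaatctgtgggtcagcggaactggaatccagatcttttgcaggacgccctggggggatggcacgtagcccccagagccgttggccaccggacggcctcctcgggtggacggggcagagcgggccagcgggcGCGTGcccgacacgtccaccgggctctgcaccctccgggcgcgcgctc
DGCR8: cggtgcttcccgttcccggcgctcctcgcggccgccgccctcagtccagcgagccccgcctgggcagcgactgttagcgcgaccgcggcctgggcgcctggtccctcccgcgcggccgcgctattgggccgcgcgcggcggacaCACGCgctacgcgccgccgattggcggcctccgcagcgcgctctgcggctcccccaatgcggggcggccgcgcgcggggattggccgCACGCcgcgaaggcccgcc

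Searched on both strands over 300 bases (250 before to 50 after the start), the core was present in 5 of the 9 members with a promoter in the table, AGO4, DGCR8, XPO5, TARBP2 and TNRC6A, against 36.5% of 35116 promoters. Those promoters include genes that were not tested, and their G and C content was not computed. No promoter of AGO2 was searched. The 5 holders are 68.0% to 80.3% G and C, and the 4 without the core, AGO1, AGO3, DICER1 and DROSHA, are 34.0% to 80.0%. The holders include the member that rose, 3 that fell and 1 that was not called. A match is a run of letters and not a bound site.

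Of the processing enzymes, DICER1 fell most. DICER1, the cytoplasmic enzyme that makes the mature duplex, was at 107, 94.3 and 110 CPM in AHR siRNA libraries, against 140, 164 and 161 CPM in control siRNA libraries. The groups were separate, and the means were 104 ± 8 CPM in AHR siRNA cells and 155 ± 13 CPM in control siRNA cells (SD, n = 3 each), 67.0% of control. The log2 fold change of DICER1 was -0.58 (edgeR adjusted p = 2.86e-06, SE 0.08). DICER1-AS1, on the other strand, shares 80 exon bases with DICER1 (0.651% of its exon length) and was higher (log2 fold change 1.22, edgeR adjusted p = 2.41e-05), at 344 counts over all 6 libraries. TARBP2, the double-stranded RNA-binding partner of DICER1, was at 50.7, 48.3 and 45.8 CPM in AHR siRNA libraries, against 47.6, 41.4 and 39.0 CPM in control siRNA libraries. These overlapped, and the log2 fold change of TARBP2 was 0.18 (edgeR adjusted p = 0.0757, SE 0.08). It was 0.25 without control siRNA replicate 1, where it was called higher (edgeR adjusted p = 0.00714). An unnamed antisense gene, ENSG00000270175, shares 16 exon bases with TARBP2, had 73 counts in all and was higher (log2 fold change 1.16, edgeR adjusted p = 0.0293). The ratio of TARBP2 to DICER1 was 0.468 ± 0.048 in AHR siRNA libraries and 0.278 ± 0.053 in control siRNA libraries (SD, n = 3 each), with no overlap and an exact permutation p of 0.1, the smallest possible.

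DICER1 is a known target of miR-103 and miR-107, and its longest annotated 3′ UTR (4270 bases, GENCODE 29) holds 5 copies of ATGCTGC, the match to the seed these microRNAs share. Of 12396 tested genes with an annotated 3′ UTR, 14.2% hold at least 1 copy. The mature sequences (RefSeq) are given in RNA letters with the seed, bases 2 to 8, in capitals, and the 5 sites follow, 30 bases each on the minus strand of chromosome 14 (GRCh38), with the match in capitals.
miR-103a-3p: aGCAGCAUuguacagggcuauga
miR-107: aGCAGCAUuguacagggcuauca
site 1, chr14:95089447-95089476: cacacctaaaatATGCTGCagattttataa
site 2, chr14:95088846-95088875: atgcttcgtggaATGCTGCatttatatgta
site 3, chr14:95087642-95087671: gcagtcctaactATGCTGCgttttataata
site 4, chr14:95086371-95086400: atttaccatcacATGCTGCagctgtttttt
site 5, chr14:95086319-95086348: catacagtaatcATGCTGCagaaatttgca

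All 4 Argonaute genes hold the same word in their 3′ UTRs, 5 copies in AGO2, 3 in AGO1, 2 in AGO4 and 1 in AGO3, and the other 5 members hold none. The Argonaute 3′ UTRs run from 4285 bases in AGO4 to 16755 bases in AGO3, against a median of 1353 bases over tested genes, and 44.0% of the 980 genes with at least 5000 bases hold the word. AGO4 and DICER1 fall short of that length. Of the 5 holders, AGO1, AGO2, AGO3 and DICER1 were lower and AGO4 was higher. The amounts of miR-103 and miR-107 were not measured here.

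A pair of other words was searched because they had been picked earlier on these same fold changes, so the search is a description only. GACTTAA occurs 3 times in the 3′ UTR of AGO2 and 1 time each in those of AGO1 and DICER1. CACAACA occurs 1 time each in those of AGO4 and DGCR8. Thus 5 of the 10 members hold either word, against 18.1% of all 12396 genes and 57.0% of those with at least 5000 bases of 3′ UTR. Of the members, AGO1, AGO2 and AGO3 alone reach that length. Nothing is read from the calls of the holders, given how both words were chosen. The copy in DICER1 lies early in its 3′ UTR, at base 76, and is shown as the sole holder of GACTTAA outside the Argonautes (GRCh38, minus strand).
DICER1, chr14:95090405-95090434: atcggaaaggaaGACTTAAagttgttagtg

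The partners of the Microprocessor differed from each other. DGCR8, the subunit that grips the hairpin, was at 53.5, 51.0 and 55.9 CPM in AHR siRNA libraries, against 68.3, 72.1 and 79.0 CPM in control siRNA libraries. There was no overlap, and the means of 53.5 ± 2.4 CPM in AHR siRNA cells and 73.1 ± 5.4 CPM in control siRNA cells (SD, n = 3 each) gave a log2 fold change of -0.45 (edgeR adjusted p = 4.08e-05, SE 0.08). DROSHA, the subunit that cuts, was at 96.6, 102 and 112 CPM in AHR siRNA libraries, against 87.6, 93.5 and 98.8 CPM in control siRNA libraries. These groups overlapped, and the log2 fold change of DROSHA was 0.15 (edgeR adjusted p = 0.0826, SE 0.07). Without AHR siRNA replicate 1 DROSHA was called higher (0.20, edgeR adjusted p = 0.0407), and without AHR siRNA replicate 3 it was at 0.093 (edgeR adjusted p = 0.359). The ratio of DGCR8 to DROSHA was 0.554, 0.499 and 0.499 in AHR siRNA libraries, against 0.781, 0.770 and 0.799 in control siRNA libraries, with no overlap and an exact permutation p of 0.1. TRMT2A, on the other strand, shares 12 exon bases with DGCR8 (0.164% of its exon length) and was not called (log2 fold change 0.05).

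XPO5, which exports precursor hairpins, had the smallest called change of the 10. It was at 146, 144 and 143 CPM in AHR siRNA libraries, against 161, 163 and 173 CPM in control siRNA libraries. The AHR siRNA libraries lay close together and below all control siRNA libraries. The means were 144 ± 1 CPM in AHR siRNA cells and 166 ± 7 CPM in control siRNA cells (SD, n = 3 each), 87.2% of control, and the log2 fold change was -0.20 (edgeR adjusted p = 0.0121, SE 0.06). When control siRNA replicate 3 was left out, XPO5 was no longer called (-0.17, edgeR adjusted p = 0.0686). POLR1C, on the other strand, shares 348 exon bases with XPO5 (4.08% of its exon length) and was itself lower (log2 fold change -0.27, edgeR adjusted p = 0.00572). The sources do not say whether counting used strand, so reads in the shared bases cannot be assigned.

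TNRC6A, the GW182 protein that recruits the deadenylases, was at 127, 127 and 150 CPM in AHR siRNA libraries, against 142, 181 and 176 CPM in control siRNA libraries. AHR siRNA replicate 3 was above control siRNA replicate 1, so the groups overlapped. The means were 135 ± 13 CPM in AHR siRNA cells and 167 ± 21 CPM in control siRNA cells (SD, n = 3 each), and the log2 fold change was -0.31 (edgeR adjusted p = 0.00573, SE 0.09) that was -0.42 without control siRNA replicate 1. The ratio of TNRC6A to AGO2 was 1.21 ± 0.03 in AHR siRNA libraries and 0.894 ± 0.037 in control siRNA libraries (SD, n = 3 each). Of its paralogs, named after their values were seen, TNRC6C rose to 127% of control (log2 fold change 0.35, SE 0.10, edgeR adjusted p = 0.00564) and TNRC6B was not called (-0.03, SE 0.09).

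**Figure D3:**
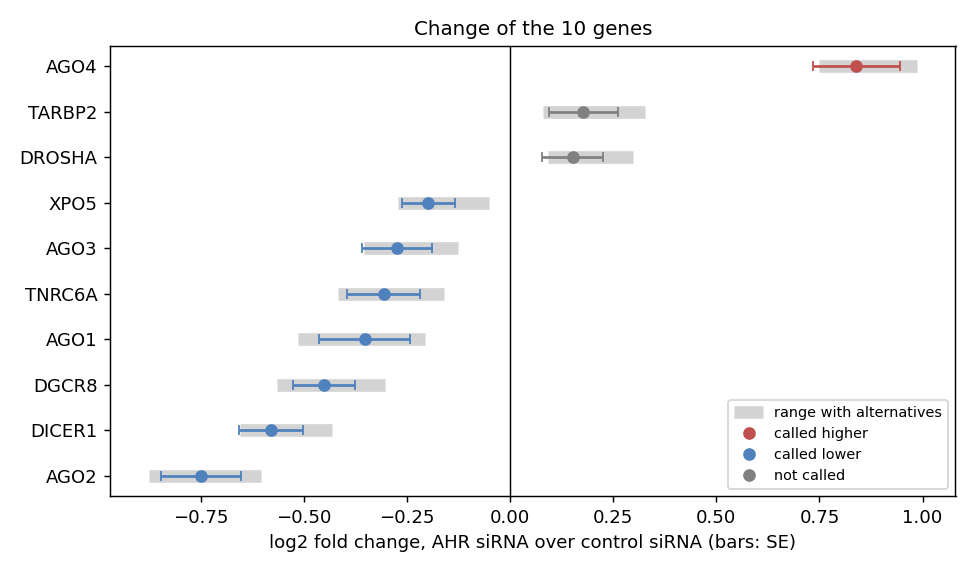
Log2 fold change of each of the 10 genes, AHR siRNA over control siRNA, as a point with its standard error, over a grey bar that spans the 15 alternatives and the reported value. AGO4 is the called rise at 0.84, AGO2 the largest fall at -0.75, and no grey bar crosses 0.

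Levels can be compared between genes only per length, here CPM per kb of merged exon, and the order depends on that length: by median transcript length AGO2 and TNRC6A stood above XPO5 in control siRNA cells. In AHR siRNA cells XPO5 stood highest at 16.9, followed by DROSHA at 13.3, TARBP2 at 11.8, TNRC6A at 10.4, DICER1 at 8.44, DGCR8 at 7.31 and AGO2 at 7.02, with AGO1 at 3.78, AGO4 at 3.77 and AGO3 at 1.65. In control siRNA cells the order was XPO5 at 19.4, TNRC6A at 12.9, DICER1 at 12.6, DROSHA at 11.99, AGO2 at 11.8, TARBP2 at 10.4, DGCR8 at 10.0, AGO1 at 4.83, AGO4 at 2.11 and AGO3 at 1.996. In control siRNA libraries each neighbouring pair from TNRC6A to DGCR8 overlapped in range, as did AGO4 and AGO3, while XPO5 stood above the rest and AGO1 apart from its neighbours in all 3 libraries. In AHR siRNA libraries the ranges of AGO1 (3.16 to 4.57) and AGO4 (3.39 to 4.09) overlapped, and both were above AGO3 (1.59 to 1.72).

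Around these genes, lists of 98 further genes of RNA silencing were described, 91 of which were tested. Of the 91, 20 were higher, 43 lower and 28 not called, or 69.2% called against the background of 60.1%, with a median log2 fold change of -0.18 against 0.01 over all tested genes. The balance moved with the scaling, as it did over all tested genes. It was 28 higher and 33 lower by library totals alone, where 5885 of all tested genes were higher and 3205 lower. By upper-quartile factors it was 26 higher and 36 lower, against 5223 higher and 3781 lower of all tested genes. Without control siRNA replicate 1 the counts were 18 higher and 47 lower, against 4470 higher and 4523 lower of all tested genes.

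Cofactors of the Microprocessor were lower or not called: of 16 tested, 12 were lower, none higher and 4 not called, with a median of -0.40. The share called was 75%, against the background of 60.1%, and 30.1% of all tested genes were lower. With library totals alone, and with upper-quartile factors, 1 cofactor was called higher and 11 lower. With GC and length trends removed, 1 was higher and 13 lower. HNRNPA2B1, an RNA-binding protein, was at 1276 ± 72 CPM in AHR siRNA cells. In control siRNA cells it was at 1947 ± 49 CPM (SD, n = 3 each). The log2 fold change of HNRNPA2B1 was -0.61 (edgeR adjusted p = 4.57e-07, SE 0.07). The splicing factor SRSF3, which binds beside hairpins, fell to 66.5% of control, ERH, a small partner of DGCR8, to 67.6%, and NCBP1, a subunit of the cap-binding complex, to 72.1%. The 4 that were not called were DDX5, DDX17, SAFB2 and METTL3, and DDX5 and DDX17 are the helicases of the Microprocessor.

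Of 18 genes of hairpin export and of Argonaute loading, 10 were lower, 2 higher and 6 not called, with a median of -0.30. That is 66.7% called, near the background of 60.1%. HSP90AA1, a chaperone that opens the Argonaute for its duplex, was at 2304 ± 159 CPM in AHR siRNA cells and 4662 ± 124 CPM in control siRNA cells (SD, n = 3 each), and the log2 fold change was -1.02 (edgeR adjusted p = 1.17e-09, SE 0.08). Its co-chaperones PTGES3 and FKBP4 fell to 61.4% and 61.2% of control, and the RNA helicase gene DHX9 to 61.3%. SND1 and TSN, named after their values were seen, were the 2 higher members, at 0.37 and 0.28 on the log2 scale. Both encode nucleases or nuclease subunits linked to small RNA handling.

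Partners and regulators of Argonautes were split, with 8 higher, 6 lower and 5 not called of 19 tested. Their share called was 73.7%, against the background of 60.1%, and their median was 0.14. Without AHR siRNA replicate 3 they were 5 higher and 5 lower, against 4079 higher and 4155 lower of all tested genes. With library totals alone they were 10 higher and 4 lower, against 5885 higher and 3205 lower of all tested genes. DDX20, a helicase found with Argonaute and with the SMN complex, was at 30.1 ± 2.2 CPM in AHR siRNA cells and 59.5 ± 3.6 CPM in control siRNA cells (SD, n = 3 each), and the log2 fold change was -0.99 (edgeR adjusted p = 5.31e-09, SE 0.08). GEMIN4, of the same complex, fell to 67.1% of control and the LIM protein gene AJUBA to 69.0%. SIDT2, a lysosomal membrane protein of the family of RNA transporters, rose to 206% of control, and the log2 fold change was 1.05 (edgeR adjusted p = 3.20e-07, SE 0.12).

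Of 27 genes that act after target binding, in deadenylation and decapping, 7 were higher, 12 lower and 8 not called. The share called was 70.4%, against the background of 60.1%, and the median was -0.17. DDX6, the helicase that links the deadenylase to decapping, was at 96.3 ± 6.6 CPM in AHR siRNA cells and 170 ± 16 CPM in control siRNA cells (SD, n = 3 each), and the log2 fold change was -0.82 (edgeR adjusted p = 3.93e-08, SE 0.08). CNOT1, the scaffold of the CCR4-NOT deadenylase, fell to 60.5% of control and LSM14A, a DDX6 partner, to 66.2%. PAN2, the nuclease of the other deadenylase, rose to 195% of control (log2 fold change 0.96, SE 0.10). With library totals alone 9 of the 27 were higher and 7 lower, where 5885 of all tested genes were higher and 3205 lower.

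Of 7 tested genes of microRNA tailing and turnover, 2 were higher, 2 lower and 3 not called, with a median of 0.02. That is 57.1% called, near the background of 60.1%. The terminal uridylyltransferase gene TUT4 rose to 127% and DIS3L2, the exonuclease that degrades uridylated precursors, to 122% of control. TENT4B fell to 58.6% and PARN, which trims adenylated tails, to 81.4%. LIN28A and LIN28B, which block let-7 processing, had 1 count and 0 counts in all 6 libraries together, below the filter.

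Of the 8 listed genes of the PIWI pathway, 4 passed the filter and were tested, and PIWIL3, DDX4 and MAEL had at most 1 count in any library. PIWIL4 was at 2.90 ± 0.65 CPM in AHR siRNA cells and 7.13 ± 0.09 CPM in control siRNA cells (SD, n = 3 each), and the log2 fold change was -1.28 (edgeR adjusted p = 5.64e-06, SE 0.18). HENMT1, the methyltransferase for the ends of PIWI-bound RNAs, rose to 147% of control, while PLD6 (log2 fold change 0.17) and PIWIL1 (0.20) were not called.

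**Figure D4:**
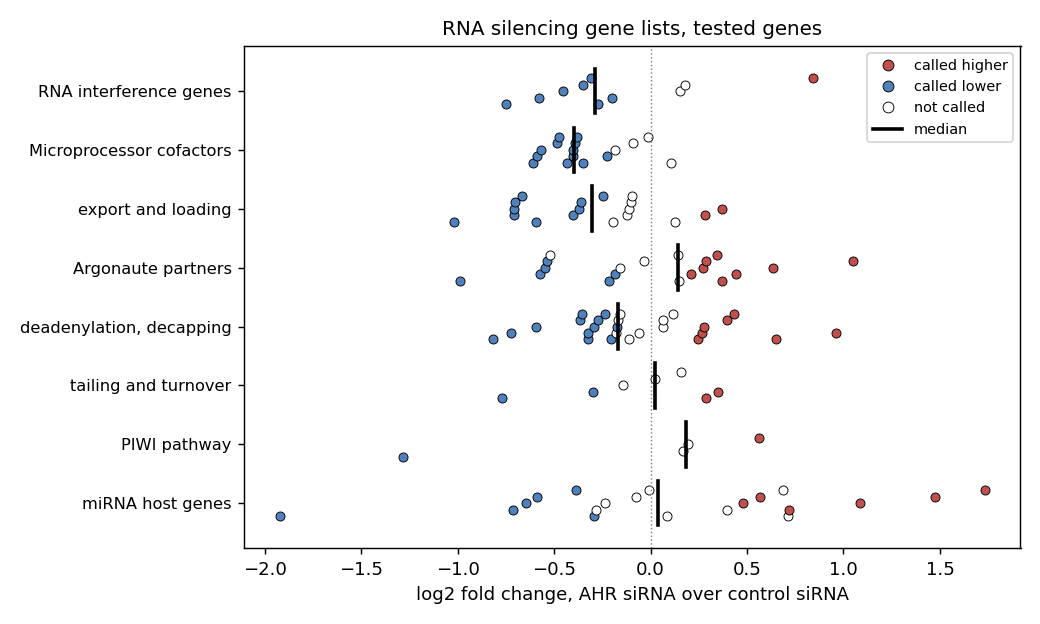
Log2 fold changes, AHR siRNA over control siRNA, of the tested genes in each list of the RNA silencing pathway and of tested miRNA host genes, 1 point per gene (red called higher, blue called lower, white not called) with the list median as a black bar. The median lies at -0.29 for the 10 RNA interference genes and -0.40 for the Microprocessor cofactors, and near 0 for miRNA host genes (0.04).

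The long transcripts that the Microprocessor cuts were counted too. Of 82 genes with a symbol for a miRNA host gene, 20 were tested, and 6 were higher, 6 lower and 8 not called, or 60.0% against the background of 60.1%, with a median of 0.04. Host genes were thus called at the background rate. A host gene count measures the long RNA, and mature microRNAs were not measured.

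Of the 6 host genes with the smallest p, 4 were lower and 2 higher. MIRLET7BHG was at 49.5, 53.7 and 48.1 CPM in AHR siRNA libraries, against 81.8, 81.3 and 84.8 CPM in control siRNA libraries, and the log2 fold change was -0.71 (edgeR adjusted p = 7.39e-08, SE 0.07). MIR200CHG was at 7.29, 6.40 and 7.42 CPM in AHR siRNA libraries, against 2.10, 2.28 and 1.92 CPM in control siRNA libraries, and the log2 fold change was 1.73 (edgeR adjusted p = 1.51e-07, SE 0.18). MIR3142HG, which holds miR-146a, had 18, 29 and 15 counts in AHR siRNA libraries, against 71, 86 and 88 counts in control siRNA libraries, and the log2 fold change was -1.92 (SE 0.23). In all 3 the groups did not overlap, as in 14 of the 20 host genes tested and in 63.7% of all tested genes. MIR4435-2HG fell to 66.5% and MIR22HG to 63.9% of control, and MIR29B2CHG rose to 164%.

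The mature microRNAs that lie inside these host genes are shown, main arms with the seed (bases 2 to 8) in capitals, each beside the call of the host gene named (RefSeq, GRCh38.p14). The let-7 pair is from chromosome 22, the miR-200c pair from chromosome 12, miR-146a from chromosome 5, miR-4435 from chromosome 2, miR-22 from chromosome 17 and the miR-29 pair from chromosome 1.
let-7a-5p, host MIRLET7BHG, lower: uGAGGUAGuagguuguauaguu
let-7b-5p, host MIRLET7BHG, lower: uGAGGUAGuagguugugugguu
miR-146a-5p, host MIR3142HG, lower: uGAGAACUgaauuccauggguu
miR-22-3p, host MIR22HG, lower: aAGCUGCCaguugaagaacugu
miR-4435, host MIR4435-2HG, lower: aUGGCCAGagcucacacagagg
miR-200c-3p, host MIR200CHG, higher: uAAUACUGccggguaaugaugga
miR-141-3p, host MIR200CHG, higher: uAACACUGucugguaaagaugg
miR-29b-3p, host MIR29B2CHG, higher: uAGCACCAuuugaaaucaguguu
miR-29c-3p, host MIR29B2CHG, higher: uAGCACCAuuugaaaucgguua

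Among those shown, let-7a and let-7b have the seed GAGGUAG, miR-29b and miR-29c have AGCACCA, and miR-200c and miR-141 have AAUACUG and AACACUG. Other microRNAs of these hosts are not shown and have other seeds, miR-3619 and miR-4763 in MIRLET7BHG and miR-3142 in MIR3142HG. The let-7 seed also lies in microRNAs of MIR100HG (163% of control), MIR4458HG (132%) and MIRLET7IHG (106%), none of which was called, so the call of MIRLET7BHG does not stand for the let-7 family. The complement of the let-7 seed, CTACCTC, occurs in the 3′ UTRs of AGO1, AGO2, AGO3 and TARBP2, against 11.3% of all 12396 genes and 34.5% of the 980 with at least 5000 bases. Of these 4, the 3 Argonautes were lower, and TARBP2, whose 3′ UTR has 450 bases, was not called.

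Of 1448 microRNA hairpin genes in the tables, 341 had at least 1 count and 19 were tested. MIR200B was called higher and MIR3682 lower, both named after their values were seen. No other hairpin was called, whereas 60.1% of all tested genes were called. MIR200B had 12, 10 and 11 counts in AHR siRNA libraries, against 3, 8 and 2 counts in control siRNA libraries, and the log2 fold change was 1.38 (edgeR adjusted p = 0.0180, SE 0.48). MIR429, its neighbour on chromosome 1, had 25, 35 and 23 counts in AHR siRNA libraries, against 21, 20 and 14 counts in control siRNA libraries, and was not called (0.65, SE 0.28, edgeR adjusted p = 0.0557). MIR3682 had 13, 9 and 9 counts in AHR siRNA libraries, against 26, 22 and 15 counts in control siRNA libraries, and the log2 fold change was -0.96 (edgeR adjusted p = 0.0219, SE 0.34). Such counts come from RNA that spans the hairpin, and at 2 to 35 counts per library only large differences were detectable. The mature forms from chromosome 1 share the seed AAUACUG with miR-200c.
miR-200b-3p: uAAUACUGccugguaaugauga
miR-429: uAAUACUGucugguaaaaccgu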

How the data were processed

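Gene counts from 6 RNA-seq libraries of DLD-1 cells were analysed, 3 after AHR siRNA and 3 after control siRNA, grouped by their titles. The authors deposited whole-number counts per Ensembl gene, 1 table per library; the submitters' processing notes list HTSeq, TopHat and TopHat2 2.0.11 and name the builds GRCh37 and hg19 without saying how each was used. The build behind the gene IDs is unclear, and printed coordinates come from the reference annotations on GRCh38. The sources do not state the strand setting or how multi-mapping reads were counted, so counts of close paralogs may share reads.

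Of 60483 IDs, 41124 had a symbol. Counts were tested with edgeR 4.0.16 in R 4.3.3 (filterByExpr, 14900 genes; TMM; quasi-likelihood test; Benjamini-Hochberg over all tested genes). The SE is the fold change over the square root of F. The test was run on simulated counts in which few genes were changed, unlike here. That check does not bear on the scaling. Alternatives used DESeq2 1.42.0, limma 3.58.1, other scalings and filters, and left out each library. Lengths and 3′ UTRs come from GENCODE 29, and microRNAs and promoters from RefSeq. The longest-transcript length and the removal of GC and length trends (loess span 0.4) were added after seeing the data, as was the promoter search. The ratios between members were not planned either. Members and lists were chosen with earlier results of these data known. The text names all members, up to 4 genes per list by smallest p and 6 host genes. No libraries differed by less than sampling noise. Protein sequences were not used here.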

Additional observations from a re-analysis of the deposited data

How the results depend on the processing

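AGO2, AGO4, DICER1 and DGCR8 kept their calls and directions under all 15 alternatives, with log2 fold changes of -0.88 to -0.60, 0.75 to 0.99, -0.65 to -0.43 and -0.57 to -0.30. With upper-quartile factors 3 genes were called higher, AGO3 (-0.20, edgeR adjusted p = 0.0520) and XPO5 (-0.12, adjusted p = 0.116) lost their calls, and DROSHA (0.23) and TARBP2 (0.26) gained them. With library totals alone 3 genes were higher and 3 lower: AGO1 (-0.21), AGO3 (-0.13), XPO5 (-0.051) and TNRC6A (-0.16) lost their calls, and DROSHA (0.30) and TARBP2 (0.33) gained them. Samples with the same replicate number correlated at 0.193, -0.0405 and 0.154 in their deviations, so the numbers were not taken as pairs; with the replicate block 3 genes were called higher, DROSHA (0.15) and TARBP2 (0.18) being added. Leaving out each library gave 1 to 2 genes higher and 6 to 7 lower, and log2 fold changes of -0.51 to -0.24 for AGO1, -0.35 to -0.22 for AGO3, 0.093 to 0.20 for DROSHA, -0.23 to -0.17 for XPO5 and 0.11 to 0.25 for TARBP2. With the median transcript length the control levels per kb were 16.8 for AGO1, 361 for AGO2, 24.5 for AGO3, 29.3 for AGO4, 120 for DICER1, 159 for DROSHA, 23.1 for DGCR8, 213 for XPO5, 41.2 for TARBP2 and 273 for TNRC6A. The median annotated transcript is short, 518 bases for AGO2. With the longest transcript they were 14.99 for DICER1, 17.6 for DROSHA, 15.6 for DGCR8, 30.9 for XPO5, 22.8 for TARBP2 and 19.7 for TNRC6A. The share of AGO2 was 71.4% in AHR siRNA and 83.6% in control siRNA libraries by median length, 49.2% and 59.9% by counts alone, and 58.2% in control siRNA libraries by the longest transcript. That of AGO4 was 17.5% in AHR siRNA and 6.83% in control siRNA libraries by median length, and 12.2% and 4.93% by counts alone.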
